A study of Mus musculus with 18 samples.

Results

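The Cyp3a cytochromes and their regulator PXR were followed by gene symbol, without regard to their values. The members were Cyp3a11, Cyp3a13, Cyp3a16, Cyp3a25, Cyp3a41a, Cyp3a41b, Cyp3a44, Cyp3a59 and Nr1i2, the gene of PXR, 9 of the 40840 genes in the count tables. Liver RNA was sequenced from ovariectomized female C57BL/6 mice of 2 models. DIO mice carried no mutation and ate a diet with 45% of its calories from fat and 0.2% cholesterol. Mice of the ob/ob model lacked leptin, in every tissue, and ate a normal AIN-76A diet. Within each model a minipump delivered vehicle, E2 (estradiol, at a daily 5 µg per kg) or PaPE-1 (a pathway-preferential estrogen, at a daily 300 µg per kg, written PaPE in the sample labels) for 6 weeks. All 6 groups were ovariectomized, so there was no group with ovaries, and no male group, and the sources used here give no ages. There were 3 libraries per group and 18 in all, although the labels speak of 2 sequenced per group.

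CYP3A enzymes are cytochromes of the endoplasmic reticulum that oxidize steroids, bile acids and many drugs, and they are among the most abundant P450 enzymes of the liver. PXR is a nuclear receptor that senses such compounds, pairs with RXR and switches on Cyp3a11 and other detoxification genes. In adult mice Cyp3a41a, Cyp3a41b and Cyp3a44 are expressed more in female than in male liver, under the control of the sex-specific pattern of growth hormone secretion. Cyp3a16, best known from fetal and young liver, is also female-biased and is grouped with them here as the 4 female-predominant genes.

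The mouse Cyp3a genes lie mostly in one cluster. On GRCm39, the build of the count tables, 7 of the 8 lay on chromosome 5 between 145373119 and 146051788, in the order Cyp3a16, Cyp3a41b, Cyp3a41a, Cyp3a44, Cyp3a11, Cyp3a25 and Cyp3a59. The female-predominant genes were thus neighbours among the members. Cyp3a13 lay apart, at chr5:137891195-137923872, and Nr1i2 lay on another chromosome, at chr16:38068711-38115211. The cluster's genes are close copies. Spliced sequences of Cyp3a41a and Cyp3a41b were 99.9% identical (GENCODE M21 transcripts), and 90.8% and 88.2% of their windows of 100 bases also occurred in another gene. For every other member that share was at most 6.05%. Reads that fitted more than 1 place were not counted, so the level of both Cyp3a41 genes was understated and their counts are uncertain.

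The proximal promoters divided the female-predominant genes from Cyp3a11, as the spliced sequences did not. Spliced, Cyp3a41a was 94.5% identical to Cyp3a11 and 92.2% to Cyp3a16. RefSeq promoters (GRCm38.p6) were found for all 9 members, and the 250 bases before the start are shown for 3 female-predominant genes, which move together below, and for Cyp3a11, their nearest neighbour among the others. Capitals mark AGGTCA or AGTTCA, the hexamers that nuclear receptors bind, and ATTGATT, a core of the HNF6 (Onecut1) site, on either strand. Of HNF6 it is known that it favours genes of the female liver. The stretches are, in this order, chr5:145720137-145720386, chr5:145805875-145806124, chr5:145469724-145469973 and chr5:145879855-145880104, all on the minus strand and read 5′ to 3′.
Cyp3a41a: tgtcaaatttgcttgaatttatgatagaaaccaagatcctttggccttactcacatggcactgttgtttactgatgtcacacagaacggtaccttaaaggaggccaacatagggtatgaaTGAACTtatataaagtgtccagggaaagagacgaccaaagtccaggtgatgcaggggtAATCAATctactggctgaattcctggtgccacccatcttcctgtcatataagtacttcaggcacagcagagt
Cyp3a44: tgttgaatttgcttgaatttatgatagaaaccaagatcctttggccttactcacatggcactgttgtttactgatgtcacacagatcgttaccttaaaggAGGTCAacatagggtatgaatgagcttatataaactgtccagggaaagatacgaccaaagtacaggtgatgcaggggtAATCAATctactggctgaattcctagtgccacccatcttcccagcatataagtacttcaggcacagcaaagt
Cyp3a16: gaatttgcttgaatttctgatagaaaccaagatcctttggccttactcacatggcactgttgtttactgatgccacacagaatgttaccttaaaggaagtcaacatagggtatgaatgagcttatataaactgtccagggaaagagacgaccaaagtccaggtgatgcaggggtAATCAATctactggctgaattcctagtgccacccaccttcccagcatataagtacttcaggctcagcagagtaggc
Cyp3a11: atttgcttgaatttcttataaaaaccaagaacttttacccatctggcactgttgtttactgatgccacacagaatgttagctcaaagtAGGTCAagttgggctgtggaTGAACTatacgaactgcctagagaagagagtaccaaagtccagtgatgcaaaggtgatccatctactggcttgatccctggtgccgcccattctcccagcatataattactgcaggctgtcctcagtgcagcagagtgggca

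The 4 female-predominant promoters were 92.8% to 99.6% identical to each other and 76.8% to 80% identical to that of Cyp3a11. Each of the 4 held ATTGATT once, on the reverse strand, 72 bases before the start, or 76 in Cyp3a16. None of the other 5 members did, and 2.72% of all 27025 promoters had a match in the same window. The 4 are close copies, so they are 1 observation rather than 4. Cyp3a25 and Cyp3a59, 95.2% identical, each held AGGTCA on both strands, and Cyp3a11 held AGGTCA and AGTTCA once each. AGGTCA occurred in 13.8% of promoters and AGTTCA in 11.9%. The STAT5 core TTCNNNGAA (7.18% of promoters), the direct repeat DR3 and the everted repeat ER6 of such hexamers (0.0555% and 0.037%) and the palindromic estrogen response element (0.0629%) matched no member, on either strand, which says only that these letters are not in this window.

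Levels are given as CPM, the counts per 1000000 of the TMM-scaled library total, or, between genes, as CPM per kb of exon. DIO libraries held 16651616 to 21703791 counts and ob/ob libraries 10470665 to 17021370. As a check of the tissue, the summed hepatocyte markers, 10 genes, reached between 87591 and 163145 CPM. Of 7 intestinal genes in the tables, Cdx2, Alpi and Reg3g had no count in any of the 18 libraries. The 7 summed to between 829.8 and 1562 CPM in DIO and between 6016 and 21810.1 CPM in ob/ob libraries, mostly from Apoa4, an apolipoprotein that mouse liver also makes. In whole liver, fewer cells of a type and less RNA per cell cannot be told apart.

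Cyp3a11 was by far the leading member. In DIO vehicle liver its level was 1923 ± 243 CPM per kb (SD, n = 3), followed by Cyp3a25 at 364 ± 38.6 CPM per kb. Next came Cyp3a41a at 40.6 ± 15.4, Cyp3a13 at 33.2 ± 1.22, Cyp3a16 at 31.4 ± 15.6 and Nr1i2 at 28.5 ± 1.41 CPM per kb. Neighbours among these 4 overlapped, so their order is not settled. Cyp3a59 stood at 19.6 ± 2.34 CPM per kb, below every Nr1i2 library, and Cyp3a41b (5.81 ± 2.46 CPM per kb) and Cyp3a44 (3.74 ± 1.32 CPM per kb) came last, overlapping each other.

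In ob/ob vehicle liver Cyp3a11 (1733 ± 612 CPM per kb) and Cyp3a25 (233 ± 60.5 CPM per kb) again led. Nr1i2 (25.1 ± 3.37), Cyp3a13 (24.6 ± 5.47) and Cyp3a59 (18.6 ± 8.6 CPM per kb) followed and overlapped each other. All 4 female-predominant genes were near zero, from 0.00953 CPM per kb for Cyp3a41b to 0.113 CPM per kb for Cyp3a44. Summed over the 4 genes, the vehicle libraries held between 109.9 and 237 CPM in the DIO model and between 0.259 and 0.531 CPM in the ob/ob model. These values stand side by side only, since genotype, diet and library preparation cannot be told apart between the models.

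**Figure D1:**
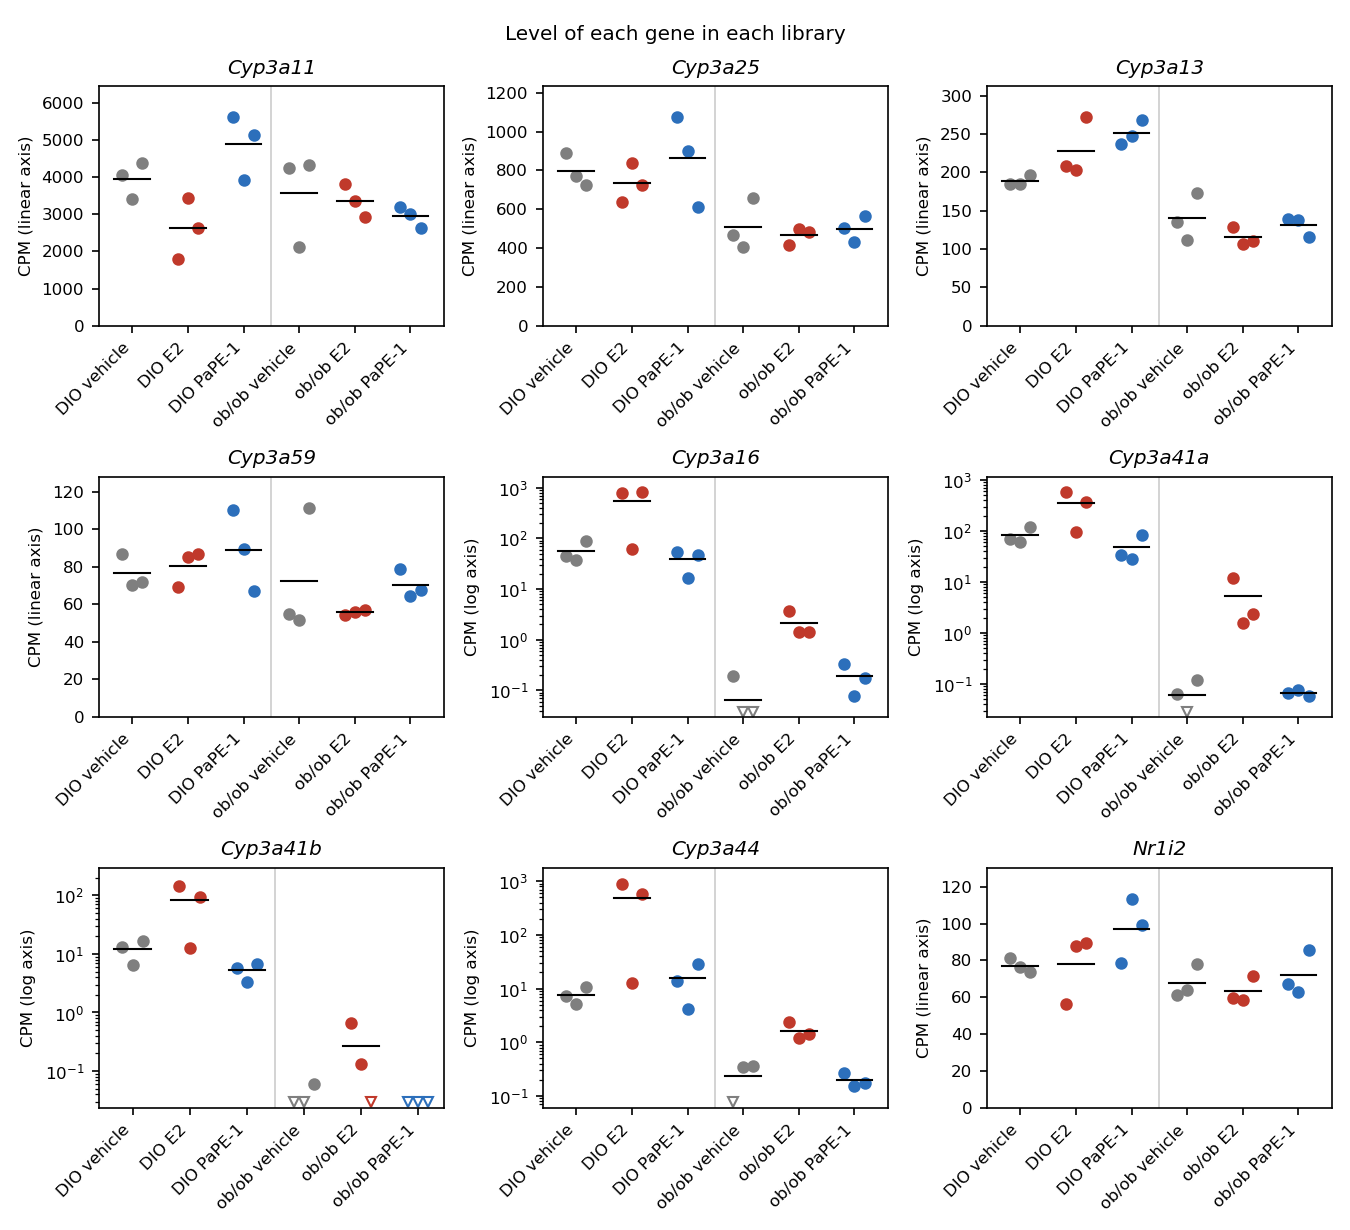
CPM of each of the 9 genes (y axis; log axis for Cyp3a16, Cyp3a41a, Cyp3a41b and Cyp3a44, linear for the rest) in the 6 groups (x axis). Points are libraries (grey vehicle, red E2, blue PaPE-1), black lines are group means, and open triangles at the bottom are libraries with no count. The female-predominant genes were high in 2 of 3 DIO E2 libraries. In ob/ob liver Cyp3a16, Cyp3a41a and Cyp3a44 were higher in all 3 E2 libraries than in any vehicle library, at a far lower level, while groups of Cyp3a25 and Nr1i2 overlapped throughout.

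In DIO liver, E2 went with far higher levels of the female-predominant genes in 2 of the 3 libraries. Cyp3a44 read 7.41, 5.19 and 10.6 CPM in the vehicle libraries and 883, 12.8 and 569 CPM in E2 replicates 1, 2 and 3. Cyp3a16 read 44.8, 37.1 and 89.7 CPM with vehicle and 789, 62.1 and 813 CPM with E2. E2 replicate 2 sat just above the vehicle libraries for Cyp3a44 and within their range for Cyp3a16, whereas the other E2 libraries were far above them.
The same library stood apart for the Cyp3a41 pair. Cyp3a41a read 70.1, 61.1 and 120.0 CPM with vehicle and 571, 95.1 and 377 CPM with E2. Cyp3a41b read 12.9, 6.54 and 16.6 CPM with vehicle and 147, 12.8 and 94.7 CPM with E2. For both genes E2 replicate 2 lay within the vehicle range. That library was not shallow: it held 21424489 counts, the most of the 3.

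With that spread, none of the 9 members passed an adjusted p of 0.05 for E2 against vehicle in DIO liver, in edgeR's quasi-likelihood test over 13884 genes. The share of all genes called was 0%. An unadjusted p under 0.05 was found for 5 members, beside 5.22% of all genes. DESeq2 called 1 member, Cyp3a44 (adjusted p = 0.00305), beside 0.137% of all genes called higher and 0.036% lower by it, and limma voom called 0 members and 0% of all genes. The log2 fold change in edgeR was 5.98 (SE 1.56, adjusted p = 0.838) for Cyp3a44 and 3.28 (SE 0.988, adjusted p = 0.879) for Cyp3a16. For Cyp3a41b it was 2.82 (SE 0.844, edgeR adjusted p = 0.879) and for Cyp3a41a 2.05 (SE 0.720, edgeR adjusted p = 0.919). The median log2 fold change was 0.27 over the 9 members and 0.01 over all genes tested.

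Leaving out E2 replicate 2, an alternative that here decides the calls, gave 3 members past the threshold, all higher, beside 0.474% of all genes called higher and 0.467% lower. In that fit Cyp3a44 rose by 6.55 on the log2 scale (SE 0.842, edgeR adjusted p = 0.0309), Cyp3a16 by 3.81 (SE 0.563, edgeR adjusted p = 0.0373) and Cyp3a41b by 3.33 (SE 0.401, edgeR adjusted p = 0.0101). Cyp3a41a had a log2 fold change of 2.50 (SE 0.528) and missed it (edgeR adjusted p = 0.125). The library was chosen for its values of these genes, so these calls describe the other 2 E2 libraries and are not independent support. Leaving out any other single DIO library called 0 members.

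**Figure D2:**
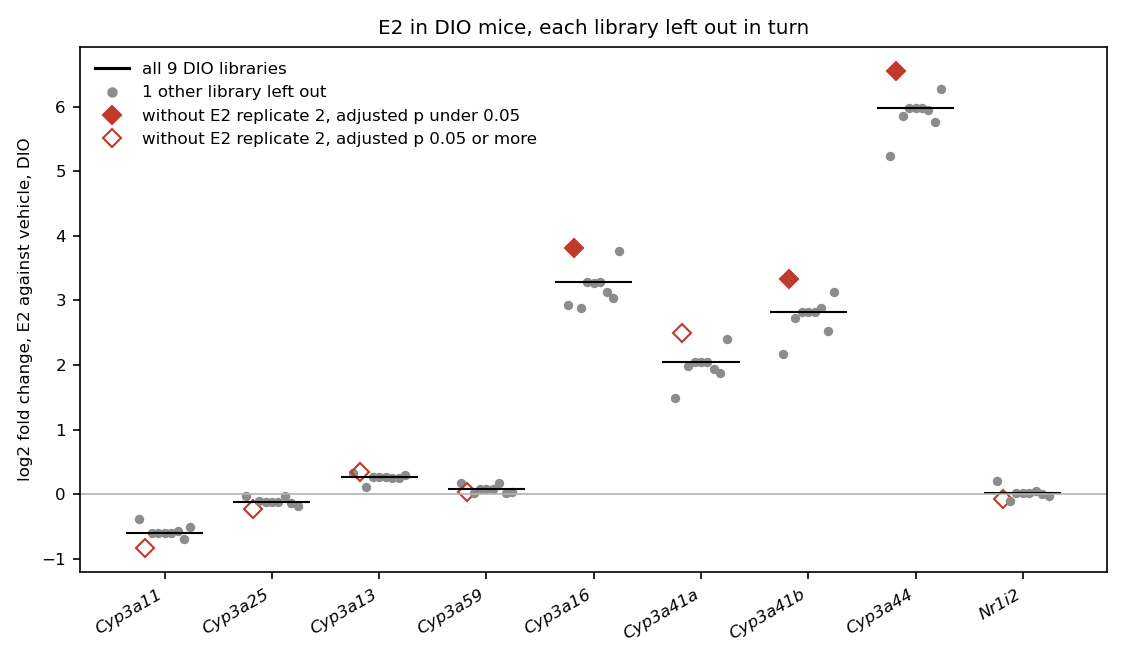
log2 fold change of E2 against vehicle in DIO liver (y axis) for each gene (x axis). Black lines use all 9 libraries, grey dots leave out 1 other library, and red diamonds leave out E2 replicate 2, filled where the edgeR adjusted p was under 0.05. The 3 filled diamonds are Cyp3a16 at 3.81, Cyp3a41b at 3.33 and Cyp3a44 at 6.55.

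Cyp3a11, the chief drug-metabolizing member, tended the other way. It read 4043, 3408 and 4392 CPM with vehicle and 1790.3, 3426 and 2640.1 CPM with E2 in DIO liver. E2 replicate 2 lay just above the lowest vehicle library, and the other E2 libraries were below all vehicle libraries. The log2 fold change was -0.59 (95% interval -1.07 to -0.11, edgeR adjusted p = 0.906), and it was -0.83 without E2 replicate 2 (edgeR adjusted p = 0.122). Neither value passed the threshold.

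The make-up of the family differed between E2 libraries. Per kb of exon, the 4 female-predominant genes made up 49.8% of the summed level of the 8 Cyp3a genes in E2 replicate 1 and 36.0% in replicate 3, but 4.20% in replicate 2. In the vehicle libraries the share lay between 2.63% and 4.56%, and with PaPE-1 between 1.08% and 2.86%. Replicates 1 and 3 of E2 were the libraries apart from all others, and replicate 2 lay inside the vehicle range. Cyp3a11 held 36.0%, 75.7% and 48.8% of the sum in the 3 E2 libraries and 79.3 ± 1.34% (SD, n = 3) in vehicle. The sum itself was 2422 ± 217 CPM per kb with E2 and 2422 ± 272 with vehicle. In ob/ob liver the female-predominant share never exceeded 0.443%, and Cyp3a11 held between 81.3% and 89.2% in every library.

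**Figure D3:**
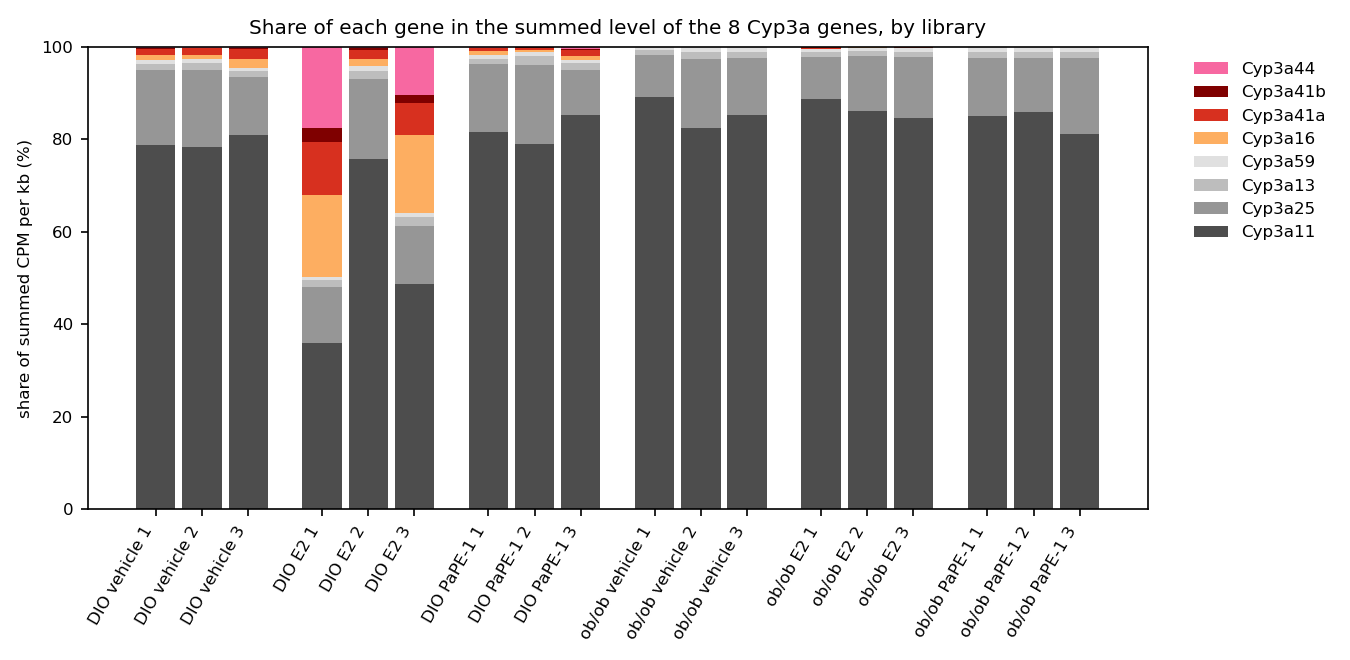
Share of each Cyp3a gene in the summed CPM per kb of the 8 genes (y axis, %), 1 bar per library (x axis, group and replicate). Grey shades are Cyp3a11, Cyp3a25, Cyp3a13 and Cyp3a59, and warm colours are the 4 female-predominant genes, which reach 49.8% and 36.0% in DIO E2 replicates 1 and 3 and at most 4.56% in every other library.

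No call was made for the remaining members with E2 in DIO liver. Cyp3a25, of liver and gut, read 889, 769 and 727 CPM with vehicle and 637, 840.1 and 725 CPM with E2, a log2 fold change of -0.12 (95% interval -0.54 to 0.31). Cyp3a13, which is also made in the intestine, read 185, 185 and 197 CPM with vehicle and 208, 203 and 272 CPM with E2. Its groups did not overlap, as for 4.55% of all genes in that direction, and its log2 fold change was 0.27 (95% interval -0.04 to 0.58), with no call in edgeR. Cyp3a59 read 86.8, 70.3 and 71.9 CPM with vehicle and 69.2, 85.3 and 86.7 CPM with E2, and its log2 fold change of 0.07 had an interval of -0.31 to 0.46.

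For PXR itself no difference was called. Nr1i2 read 81.1, 76.6 and 73.5 CPM with vehicle, 56.2, 87.7 and 89.7 CPM with E2 and 78.7, 113 and 99.2 CPM with PaPE-1 in DIO liver. The log2 fold change was 0.01 for E2 (95% interval -0.39 to 0.42) and 0.33 for PaPE-1 (95% interval -0.07 to 0.74). Groups overlapped in both comparisons. In ob/ob liver it read 61.2, 64.0 and 78.2 CPM with vehicle, 59.7, 58.6 and 71.4 CPM with E2 and 67.0, 62.9 and 85.8 CPM with PaPE-1. There the log2 fold change was -0.10 for E2 (95% interval -0.41 to 0.20) and 0.08 for PaPE-1 (95% interval -0.22 to 0.39). With 3 libraries per group, differences of Nr1i2 inside these intervals are not excluded.

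With PaPE-1 no call was made for the female-predominant genes in DIO liver, and their fold changes had wide intervals. Cyp3a44 read 13.8, 4.13 and 29.2 CPM with PaPE-1, Cyp3a16 54.2, 16.7 and 46.4 CPM, Cyp3a41a 33.6, 27.7 and 84.0 CPM and Cyp3a41b 5.73, 3.35 and 6.62 CPM. All 4 overlapped their vehicle libraries. Their log2 fold changes against vehicle ran from -1.21 for Cyp3a41b (95% interval -3.28 to 0.86) to 1.01 for Cyp3a44 (95% interval -2.17 to 4.19). Without E2 replicate 2, which alters the estimated spread, the Cyp3a41b interval was -2.13 to -0.30, with an unadjusted p of 0.0159 and an edgeR adjusted p of 0.123. Cyp3a11 read 5610.3, 3919 and 5119 CPM with PaPE-1, a log2 fold change of 0.31 (95% interval -0.17 to 0.79). In edgeR 0 members passed the threshold, as did 0% of all genes. limma voom also called 0 members and 0% of all genes, while DESeq2 called 0 members beside 3.77% of all genes higher and 1.64% lower. In edgeR 1 member, Cyp3a13, had an unadjusted p under 0.05, beside 21.1% of all genes.
Cyp3a13 read 237, 248 and 268 CPM with PaPE-1, above all 3 vehicle libraries. Its log2 fold change was 0.41 (SE 0.145, edgeR adjusted p = 0.145), and 16.4% of all genes likewise lay above vehicle without overlap. Sums of cell markers differed in the same libraries. Hepatocyte markers summed to 123046 to 150149 CPM with PaPE-1 and 96561 to 105058 CPM with vehicle, pericentral markers to 15175 to 20564 against 9366 to 12316 CPM, and stellate cell markers to 469 to 501 against 544 to 611 CPM. In edgeR 0 of these markers passed, with 7, 3 and 7 of 10 at an unadjusted p under 0.05, beside 21.1% of all genes. DESeq2 called 4 hepatocyte and 3 pericentral markers higher, beside 3.77% of all genes, and 3 stellate markers lower, beside 1.64%. Median log2 fold changes were 0.39, 0.02 and -0.29 for the 3 lists, beside -0.03 for all genes. The pericentral list thus shifted little in its median, and Cyp2e1 is in both the hepatocyte and the pericentral list. The part of these markers in the PaPE-1 values was not tested.

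Set against E2 directly, PaPE-1 libraries in DIO liver had lower mean levels of the female-predominant genes. Cyp3a16, Cyp3a41a and Cyp3a41b were lower without overlap (8.26% of all genes), and Cyp3a11 was higher without overlap (9.91%). Cyp3a44 overlapped, since E2 replicate 2, at 12.8 CPM, lay below PaPE-1 replicates 1 and 3, at 13.8 and 29.2 CPM. No member passed edgeR's threshold with all libraries, beside 0.036% of all genes. Of the members, 5 had an unadjusted p under 0.05, beside 17% of all genes. limma voom called 0 members, beside 0.0072% of all genes, whereas DESeq2 called Cyp3a11 higher, beside 0.908% of all genes, and all 4 female-predominant genes lower, beside 0.807%. Log2 fold changes were -4.97 for Cyp3a44 (SE 1.48), -4.03 for Cyp3a41b (SE 0.913), -3.83 for Cyp3a16 (SE 1.02), -2.85 for Cyp3a41a (SE 0.744) and 0.90 for Cyp3a11 (SE 0.223), with edgeR adjusted p from 0.175 to 0.204.
Without E2 replicate 2 the same 5 passed, beside 2.56% of all genes called higher and 3.08% lower. Cyp3a41b then fell by 4.55 on the log2 scale (edgeR adjusted p = 0.00476) and Cyp3a11 was higher by 1.14 (edgeR adjusted p = 0.0207). Here too the library was left out for its values of the female-predominant genes. The calls therefore describe the other E2 libraries and are not independent support.

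**Figure D4:**
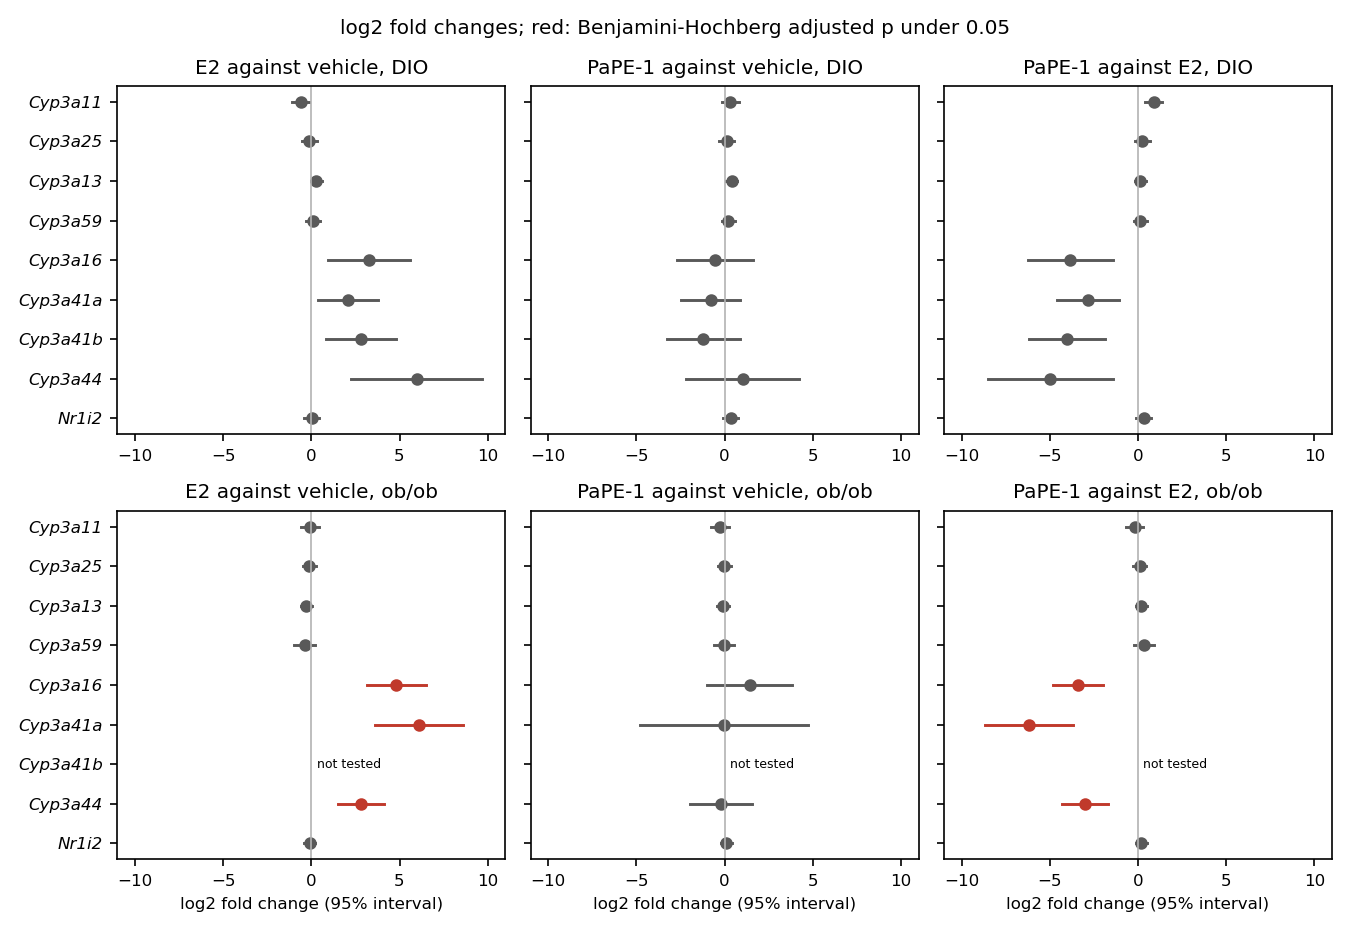
log2 fold change with its 95% interval (x axis) for each gene (y axis) in the 3 comparisons of DIO liver (top) and of ob/ob liver (bottom), all libraries included. Red marks an edgeR adjusted p under 0.05, which Cyp3a16, Cyp3a41a and Cyp3a44 reached in ob/ob liver for E2 against vehicle and for PaPE-1 against E2.

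In ob/ob liver E2 raised female-predominant Cyp3a genes from almost nothing to a low level. Cyp3a41a had 1, 0 and 2 counts in the vehicle libraries and 181, 24 and 36 with E2. Cyp3a16 had 3, 0 and 0 counts with vehicle and 55, 22 and 21 with E2. Cyp3a44 had 0, 4 and 6 counts with vehicle and 36, 18 and 21 with E2. In all 3 genes every E2 library lay above every vehicle library, as for 20.7% of all genes. The 3 were tested only through their E2 counts, so this separation cannot be read against that share. E2 replicate 1 was the highest, and for Cyp3a41a it held most of the counts.

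These 3 of the 8 members tested rose and 0 fell, where 9.81% of all 13433 genes were called higher and 12.3% lower. The 3 had at most 6 counts in every vehicle and PaPE-1 library and passed the filter on low counts only through the E2 group, so their number cannot be read against that share. The edgeR adjusted p was 0.00315 for Cyp3a16, 0.00782 for Cyp3a41a and 0.00841 for Cyp3a44, with fitted log2 fold changes of 4.82 (SE 0.789), 6.12 (SE 1.11) and 2.81 (SE 0.608). With so few counts a ratio of summed counts per library total is the safer figure. It was 31.6 for Cyp3a16 (95% exact interval 10.5 to 156), 77.6 for Cyp3a41a (26.2 to 379) and 7.25 for Cyp3a44 (3.73 to 15.7), intervals that cover counting error only. The ratios moved when single libraries were left out, an alternative added after seeing the data. Without E2 replicate 1 the ratio was 29.0 for Cyp3a41a, 20.8 for Cyp3a16 and 5.66 for Cyp3a44. Leaving out each vehicle library gave 57.3 to 143 for Cyp3a41a, with the highest without replicate 3, and 4.70 to 11.1 for Cyp3a44, with the lowest without replicate 1 and the highest without replicate 3. For Cyp3a16 it was 19.4 without vehicle replicate 3, and replicate 1 held all of its vehicle counts. Over 14 alternatives the fitted log2 fold change ran from 4.70 to 6.87 for Cyp3a41a, 4.19 to 8.01 for Cyp3a16 and 2.21 to 3.37 for Cyp3a44. Cyp3a41b was too low to be tested, with 0, 0 and 1 counts in vehicle and 10, 2 and 0 with E2, a ratio of 11.6 (1.72 to 496), or 2.90 (0.151 to 171) without E2 replicate 1. DESeq2 (10.4% of all genes higher), limma voom (9.64%) and the fits with each library left out also called the 3. They reuse the same filter rule and the same libraries, so these calls are not independent support. They cannot be read against those shares either. A filter of at least 10 counts in every library leaves the 3 untested. Even so, their level with E2 was 2.16 ± 1.27 CPM for Cyp3a16, 5.31 ± 5.76 for Cyp3a41a and 1.65 ± 0.635 for Cyp3a44 (SD, n = 3).

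No call was made for the abundant members. Cyp3a11 read 4246, 2109 and 4322 CPM with vehicle and 3808, 3356 and 2931 CPM with E2 in ob/ob liver. Vehicle replicate 2, the shallowest library, was the low one. The log2 fold change was -0.08 (95% interval -0.58 to 0.42). Cyp3a25 read 464, 404 and 657 CPM with vehicle and 415, 499.9 and 481 CPM with E2, a log2 fold change of -0.13 (95% interval -0.50 to 0.24). Cyp3a13 had a log2 fold change of -0.28 (95% interval -0.61 to 0.04) and Cyp3a59 of -0.38 (95% interval -0.96 to 0.20), with vehicle replicate 3 far above the rest for Cyp3a59, at 111 CPM against 54.7 and 51.5. The median log2 fold change was -0.09 over the 8 members tested and 0.01 over all genes. Of the further Cyp3a genes, Cyp3a57 was in the tables and was too low to be tested in either model.

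With PaPE-1 the female-predominant genes of ob/ob liver had at most 5 counts in any library. Cyp3a41a had 1 count in each PaPE-1 library, Cyp3a16 had 5, 1 and 3, Cyp3a44 had 4, 2 and 3 and Cyp3a41b had none. Summed count ratios to vehicle were 0.964 for Cyp3a41a (95% exact interval 0.129 to 7.20), 2.89 for Cyp3a16 (0.722 to 16.6) and 0.868 for Cyp3a44 (0.312 to 2.38), with intervals that allow changes of several fold. Cyp3a11 read 3203, 2993 and 2641 CPM, a log2 fold change of -0.27 (95% interval -0.77 to 0.22). No member passed in edgeR, beside 0% of all genes, none had an unadjusted p under 0.05, beside 2.65% of all genes, and DESeq2 and limma voom called 0 members, beside 0.0149% and 0% of all genes. Against E2, PaPE-1 gave log2 fold changes of -3.40, -6.16 and -3.01 for Cyp3a16, Cyp3a41a and Cyp3a44 (edgeR adjusted p = 0.00669, 0.00897 and 0.00815), where 7.45% of all genes were called lower, and here too the 3 were tested only through their E2 counts. limma voom called the 3 as well (7.79% of all genes lower), and DESeq2 called 2 (8.12%) and gave no adjusted p for Cyp3a44. Without PaPE-1 replicate 3 the edgeR adjusted p of Cyp3a41a was 0.0532 and missed the threshold. The PaPE-1 libraries of the 3 genes lay below all E2 libraries, as for 18.2% of all genes, a share they cannot be read against. Those of Cyp3a59 lay above all E2 libraries, as for 19.1% (log2 fold change 0.33, edgeR adjusted p = 0.399). Cyp3a41b had 12 counts over the E2 group, 10 of them in replicate 1, and 0 over the PaPE-1 group. The lower limit of the 95% exact interval of that ratio was 2.78, and 0.283 without E2 replicate 1. Both comparisons share the E2 libraries.

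Other transcripts moved with E2 in ob/ob liver as well. Of 12 markers of liver endothelial cells 11 rose, beside 9.81% of all genes called higher and 12.3% lower. The 12 summed to 505 to 619.7 CPM with E2 and 288 to 321 CPM with vehicle. Of 10 Kupffer cell markers 6 rose (601 to 833 against 381 to 487 CPM), of 10 neutrophil markers 8 rose (148 to 455 against 73.5 to 197 CPM), and of 10 hepatocyte markers 5 rose and 1 fell (146232 to 163145 against 87591 to 116938 CPM). The part of these markers in the Cyp3a result was not tested. Of the other lists, 2 of 10 pericentral markers rose, 1 of 10 periportal markers fell, and 1 of 10 stellate cell and 1 of 6 tested lymphocyte markers rose. With so few genes these numbers are not far from the shares of all genes called. Of the 2 intestinal genes tested, Apoa4 fell by 1.09 on the log2 scale (edgeR adjusted p = 0.0238), and the list summed to 6016 to 8062 CPM with E2 and 10490.5 to 21810.1 CPM with vehicle. In DIO liver 0 markers of the endothelial, Kupffer cell, neutrophil and hepatocyte lists were called with E2, in edgeR, DESeq2 or limma voom. In edgeR 2 of 12, 8 of 10, 0 of 3 tested and 2 of 10 had an unadjusted p under 0.05, beside 5.22% of all genes. The Kupffer markers summed to 699 to 927 CPM with E2 and 467 to 616 CPM with vehicle, and E2 replicate 2, at 703 CPM, was not apart from replicate 3 there.

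The difference in ligand effect between the models was tested over all 18 libraries, and no member passed, in edgeR, DESeq2 or limma voom. The share of all 14171 genes called was 0.0141% for E2 and 0% for PaPE-1 in edgeR, 2.36% and 0.981% in DESeq2 and 0.00706% and 0% in limma voom. Only Cyp3a13 had an unadjusted p under 0.05, in both tests, beside 16.9% and 12.1% of all genes. Its E2 effect was lower in ob/ob than in DIO liver by a log2 difference of -0.57 (95% interval -1.01 to -0.12, edgeR adjusted p = 0.192) and its PaPE-1 effect by -0.52 (95% interval -0.97 to -0.07, edgeR adjusted p = 0.340). For Cyp3a44 the E2 difference was -3.17 with an interval from -10.4 to 4.07, so the call in ob/ob and not in DIO liver does not show that the models differ. Leaving out DIO E2 replicate 2 called 0 members as well, beside 5.76% of all genes for E2, and left Cyp3a13 at -0.64 (edgeR adjusted p = 0.0936).

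Genes known to be targets of PXR outside the family include transporters, conjugating enzymes and Cyp2b and Cyp2c cytochromes. Of 36 such genes 1 rose and 15 fell with E2 in ob/ob liver, beside 9.81% of all genes called higher and 12.3% lower, with a median log2 fold change of -0.42 beside 0.01 for all genes tested. Gsta1, a glutathione transferase, fell by 3.22 (edgeR adjusted p = 0.000374), from 17.3 to 1.85 CPM. Abcg2, an efflux transporter, fell by 1.04 (edgeR adjusted p = 0.00107), from 112 to 54.2 CPM. Cyp2b10, the classical target of the related receptor CAR, fell by 1.80 (edgeR adjusted p = 0.00125) and the flavin monooxygenase Fmo5 by 0.91 (edgeR adjusted p = 0.00265). In the same libraries Cyp3a11 and Nr1i2 had no call.
PaPE-1 called 0 of the 36 in ob/ob liver, in edgeR, DESeq2 and limma voom, with 3 at an unadjusted p under 0.05, beside 2.65% of all genes. Directly against E2, PaPE-1 left 12 higher and 2 lower, beside 10% and 7.45% of all genes. In the DIO model edgeR and limma voom called 0 for either ligand against vehicle, with 9 at an unadjusted p under 0.05 for E2, beside 5.22% of all genes, and 14 for PaPE-1, beside 21.1%. DESeq2 called 0 for E2 and 5 higher for PaPE-1, beside 3.77% of all genes. Without E2 replicate 2, 3 fell with E2 in DIO liver, beside 0.467% of all genes. Cyp2a5, a coumarin hydroxylase, had 2611 CPM with PaPE-1 and 1006 CPM with vehicle in DIO liver (edgeR adjusted p = 0.0707).

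P450 enzymes need electron donors and haem. Of 16 genes of electron supply and haem, 2 rose and 2 fell with E2 in ob/ob liver, numbers near the shares of all genes called (9.81% higher and 12.3% lower). Por, the reductase that feeds electrons to every P450 of the endoplasmic reticulum, fell by 0.54 (edgeR adjusted p = 0.0398), and Cpox of haem synthesis fell by 0.68 (edgeR adjusted p = 0.00617), while the haem enzymes Ppox and Uros rose by 0.74 and 0.66 (edgeR adjusted p = 0.00806 and 0.00834). PaPE-1 called 0 there in all 3 tools, with 0 at an unadjusted p under 0.05 in edgeR, beside 2.65% of all genes. In DIO liver 0 passed for either ligand in edgeR and limma voom, with 1 at an unadjusted p under 0.05 for E2 and 7 for PaPE-1, beside 5.22% and 21.1% of all genes. DESeq2 called 4 higher for PaPE-1, beside 3.77% of all genes, and 0 for E2. With E2 replicate 2 out of the fit, 2 rose with PaPE-1, beside 0.871% of all genes called higher and 0.496% lower. Por had 933 CPM with PaPE-1 and 478 CPM with vehicle in DIO liver, all libraries included (edgeR adjusted p = 0.0707).

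Among 28 regulators of PXR and Cyp3a genes, 27 were tested, and 4 rose and 5 fell with E2 in ob/ob liver, not far from the shares of all genes called (9.81% higher and 12.3% lower). Nr1i3, the gene of CAR, rose (edgeR adjusted p = 0.00925) from 44.3 to 109.6 CPM. Nr0b2, the corepressor SHP, rose by 1.14 (edgeR adjusted p = 0.0111), and the pioneer factor Foxa1 and the chaperone Hsp90aa1 fell by 0.59 and 0.60 (edgeR adjusted p = 0.0110 and 0.0103). PaPE-1 called 0 there in all 3 tools, with 1 at an unadjusted p under 0.05 in edgeR, beside 2.65% of all genes. In DIO liver 0 were called for either ligand in all 3 tools, with 1 at an unadjusted p under 0.05 for E2 and 2 for PaPE-1, beside 5.22% and 21.1% of all genes. Esr1, the gene of the estrogen receptor ERα, had 74.9 CPM with E2 and 37.5 CPM with vehicle in DIO liver (edgeR adjusted p = 0.780). With E2 replicate 2 left out, 1 of these regulators rose with E2, beside 0.474% of all genes called higher and 0.467% lower.

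The growth hormone axis sets the sex pattern of these cytochromes. Of 18 tested genes of the axis 6 rose and 1 fell with E2 in ob/ob liver, beside 9.81% of all genes called higher and 12.3% lower. Cux2, a repressor made in female liver, rose by 2.84 (edgeR adjusted p = 0.00364), from 2.00 to 14.7 CPM. Igfals, Cish and Igf1, induced by growth hormone, rose by 1.57, 1.08 and 1.06 (edgeR adjusted p = 0.00143, 0.00465 and 0.00437). Of 26 other female-biased genes tested 9 rose and 2 fell, with a median log2 fold change of 0.56, and of 22 male-biased genes 4 rose and 6 fell, so that this list went both ways, with a median of -0.17. A1bg rose by 4.25 (edgeR adjusted p = 0.00107) and the male-biased Cyp4a12a fell by 4.21 (edgeR adjusted p = 0.0112), whereas the male-biased Cyp8b1, of bile acid synthesis, rose by 0.88 (edgeR adjusted p = 0.00465).
In DIO liver edgeR and limma voom called 0 of these 3 lists with E2, with 4 of 19, 13 of 28 and 9 of 24 at an unadjusted p under 0.05, beside 5.22% of all genes, and DESeq2 called 5 female-biased genes higher, beside 0.137%. Without E2 replicate 2, 7 female-biased genes rose and 1 fell, 3 male-biased genes rose and 3 fell and 1 gene of the axis rose, beside 0.474% of all genes called higher and 0.467% lower, so that library also decided these calls. With PaPE-1 edgeR and limma voom called 0 of the 3 lists in either model, with 6, 7 and 4 at an unadjusted p under 0.05 for DIO mice, beside 21.1% of all genes, and 3, 2 and 0 for ob/ob mice, beside 2.65%. DESeq2 called 1, 2 and 4 of them for DIO mice, beside 3.77% of all genes higher and 1.64% lower, and 0 for ob/ob mice. Without E2 replicate 2, which alters the estimated spread, 2 female-biased genes rose and 2 fell and 2 male-biased genes rose with PaPE-1 in DIO liver, beside 0.871% of all genes called higher and 0.496% lower.

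Genes whose pattern over the 18 libraries was most like that of Cyp3a16, Cyp3a41a and Cyp3a44 were sought among 12053 genes, with each model centred on its own mean. They were A1bg (Pearson r = 0.94), Dct (0.88), F11 (0.87), Chic1 (0.86) and the prolactin receptor Prlr (0.86), as a description over libraries that share the same groups. For A1bg r was 0.91 within the 9 DIO libraries and 0.98 within the 9 ob/ob libraries. In DIO liver E2 replicates 1 and 3 held the extremes of the 3 genes. In ob/ob liver each of the 3 had at most 6 counts in any library outside the E2 group. Cyp3a11 was most like Il1rap (0.88), A2ml1 (0.87), Hsd17b13 (0.84), Hsd17b11 (0.83) and Ces1e (0.83). Among the genes most like Nr1i2 were Herpud1 (0.88), Abhd6 (0.86), Slc25a47 (0.84) and Dclre1a (0.83). No gene was on 2 of these lists.
Among the members themselves, Cyp3a16, Cyp3a41a, Cyp3a41b and Cyp3a44 had r between 0.91 and 0.97 with each other in the 9 DIO libraries, and Cyp3a11 had r between -0.83 and -0.73 with them, over libraries of which E2 replicates 1 and 3 hold the extremes. Cyp3a25 and Cyp3a59 had r = 0.90 in DIO and 0.83 in ob/ob libraries. Their promoters were 95.2% and their spliced sequences 97% identical, and any part of either in this r was not tested. Nr1i2 had r = 0.52 with Cyp3a11 in DIO and -0.15 in ob/ob libraries.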

How the data were processed

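Liver RNA-seq was analysed from the raw counts per gene that the authors deposited, 1 table per model with 9 libraries each. Per the file headers and the submitters' processing notes, reads were aligned to GRCm39 with STAR (2.7.6a) and counted by strand with featureCounts (2.0.0) on RefSeq genes, without reads that fit several places, which lowers the counts of near-identical genes. The deposited tables of DESeq2 results were not used. Genes passing filterByExpr were scaled by TMM and tested with edgeR's robust quasi-likelihood test (4.0.16, R 4.3.3) over the 9 libraries of a model, and over 18 for interactions, with Benjamini-Hochberg adjusted p over all genes and a threshold of 0.05. SE is the log2 fold change over the root of F. Correlations used log2 CPM with a prior count of 2. Count ratios have exact binomial intervals. Alternatives used DESeq2 (1.42.0), limma voom (3.58.1), other filters and scaling, left-out libraries and summed paralogs. List members named are those with the smallest adjusted p, up to 4 past the threshold or else up to 2. A gene among those most like Nr1i2 is not reported here. The members and gene lists were chosen with earlier results of these data known. Fits were tested on simulated data.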

Additional observations from a re-analysis of the deposited data

How the results depend on the processing

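Counts of members past the threshold differed from those above in few settings. DESeq2's Wald test gave 1 higher member for E2 against vehicle in DIO liver, beside 0.137% of all genes. It gave 1 higher and 4 lower for PaPE-1 against E2 in DIO liver, beside 0.908% and 0.807%. Requiring at least 10 counts in every library removed the female-predominant genes in ob/ob liver, leaving 0 higher members for E2 against vehicle and 0 lower for PaPE-1 against E2. Leaving out each library in turn gave 0 to 3 higher members for E2 against vehicle in DIO liver. For PaPE-1 against E2 it gave 0 to 1 higher and 0 to 4 lower in DIO liver, and 2 to 3 lower in ob/ob liver. The highest DIO counts were all without E2 replicate 2, where 0.474%, 2.56% and 3.08% of all genes were called in those directions. The ob/ob count for E2 against vehicle was 3 without any 1 library. These fits reuse the same filter rule and libraries, and the 3 genes were tested only through their E2 counts. That count is thus not independent support and cannot be read against the share of all genes called. The same holds for PaPE-1 against E2 in ob/ob liver. For PaPE-1 against E2 in ob/ob liver DESeq2 gave 2 lower members, beside 8.12% of all genes. No filter gave 4, beside 955 of 22081 genes lower. Size factors, limma voom and fits of the compared groups alone left every count of members as it was. For PaPE-1 against vehicle in DIO liver, the compared groups alone gave 467 genes higher and 306 lower of 13604, where the fit above called 0%. With PaPE-1 and vehicle alone only 5 members were tested in ob/ob liver in place of 8, without the female-predominant genes. Summing Cyp3a41a with Cyp3a41b gave a log2 fold change of 2.18 for E2 in DIO liver, with no call (edgeR adjusted p = 0.912). In ob/ob liver it was 5.82 (edgeR adjusted p = 0.00934), again tested only through the E2 counts. No paired analysis was possible because the labels give animal numbers that no 2 groups share. Counts of at most 12 for Cyp3a41b in ob/ob groups limit its values to counting ratios, and 3 libraries per group leave wide intervals in DIO liver.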
